A study of Mus musculus with 7 samples.

Results

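A set of 8 cartilage genes was followed through the cells of mouse malignant peripheral nerve sheath tumors (MPNSTs). The genes were Sox9, Acan, Matn4, Cnmd, Hapln1, Epyc, Ucma and Comp, out of 33696 genes in the feature lists. They were chosen by symbol because they led a cluster of tumor cells in these same libraries, so their levels in tumor cells against other cells and their joint presence in a cell are given as description, with no test. The comparison of irradiated with control tumors did not enter that choice and was tested.

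The data are single-cell RNA profiles (10x Genomics 3' assay, which counts unique molecular identifiers, UMIs) of 7 subcutaneous tumors with 1 library per tumor. All tumors grew from implanted cells of JW23.3, an Nf1 mutant mouse MPNST line, in the flanks of female C57/B6 wildtype mice aged 5 to 6 weeks. Mice were randomized on day 7 after implantation, and irradiated tumors 1 to 4 received 5 daily fractions of 2 Gy, whereas control tumors 1 to 3 received none. Tumors were harvested on day 21 and dissociated with papain. A single line in a single host strain limits the groups as a model of the disease.

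The libraries held 2859 to 8452 cells each, with median depths of 6058.5 to 17930.5 UMIs, and 34297 of 39537 cells passed the cell filter. Of 39347 distinct barcodes, 190 occurred in more than 1 library. By stress transcripts, mitochondrial share, depth, cell number and number of genes found, the libraries were split into the 2 technical sets with the least spread within them, irradiated 1 and controls 2 and 3 in set 1 and the remaining tumors in set 2. The labels name no batch, and the spread within the sets was 0.581 of the total against 0.628 for the next of 63 splits. Clustering, done without the 8 genes or any other gene of the cartilage list, gave 12 MPNST-like clusters (16634 cells), named from marker lists and from low detection of Xist, which the female hosts express. The host classes were macrophage-like (12689 cells), T/NK-like (1587), endothelial-like (628), fibroblast-like (478), dendritic-like (409), pericyte-like (246) and granulocyte-like (59). Cluster 27 (73 cells), led by Krt19, Prlr, Wfdc2 and Krt8, was left without a name, as were a further 1494 cells.

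Cartilage cells live within a matrix that they secrete themselves. SOX9, a transcription factor that works with SOX5 and SOX6, switches on the matrix genes. Type II, IX and XI collagens form the fibrils, aggrecan holds water between them, and link protein fastens aggrecan to hyaluronan. SOX9 is also made in neural crest and Schwann lineage cells and in hair follicle epithelium, so on its own it does not mark cartilage. MPNSTs are tumors of the nerve sheath in which pathologists occasionally find cartilage or other foreign tissue.

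The genes fall into roles. Sox9 encodes the transcription factor. Acan encodes aggrecan and Hapln1 encodes link protein. Matn4 (matrilin 4) and Comp (cartilage oligomeric matrix protein) encode adaptor proteins of the matrix, Epyc (epiphycan) a small leucine-rich proteoglycan, Cnmd (chondromodulin) an inhibitor of vessel growth, and Ucma a secreted protein rich in gamma-carboxylated residues. The members other than Sox9 are called the 7 matrix members here. In GRCm38 (GENCODE M21 annotation, matched by gene identifier) the genes lie on 7 chromosomes, with Matn4 at chr2:164389393-164405160 and Ucma at chr2:4976122-4985748. The feature lists carry no coordinates and no build.

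Promoter windows are shown for Cnmd, Epyc and Ucma, the 3 genes found together in the same cell most often relative to their frequencies, and for Matn4, whose neighbor on the chromosome had a similar pattern. For Matn4 only the first window is printed, and a second lies at chr2:164404769-164405068. Each window holds 250 bases before and 50 bases after a RefSeq transcript start (GRCm38.p6), read 5′ to 3′ on the gene's strand. Capitals mark ACAAAG or ACAATG, short cores found in SOX binding sites, on either strand.
Cnmd (chr14:79662134-79662433, minus strand): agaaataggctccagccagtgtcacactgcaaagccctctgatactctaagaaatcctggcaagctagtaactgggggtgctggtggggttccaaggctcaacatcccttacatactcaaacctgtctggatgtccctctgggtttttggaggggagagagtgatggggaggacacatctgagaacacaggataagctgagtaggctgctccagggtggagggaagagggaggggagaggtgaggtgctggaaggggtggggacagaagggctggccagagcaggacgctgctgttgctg
Epyc, first window (chr10:97643818-97644117, plus strand): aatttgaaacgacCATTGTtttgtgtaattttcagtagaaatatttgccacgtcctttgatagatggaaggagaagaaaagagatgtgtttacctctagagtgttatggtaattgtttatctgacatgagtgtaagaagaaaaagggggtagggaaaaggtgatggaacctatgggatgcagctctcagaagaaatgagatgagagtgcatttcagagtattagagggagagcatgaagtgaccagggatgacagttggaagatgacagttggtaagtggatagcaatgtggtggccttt
Epyc, second window (chr10:97646853-97647152, plus strand): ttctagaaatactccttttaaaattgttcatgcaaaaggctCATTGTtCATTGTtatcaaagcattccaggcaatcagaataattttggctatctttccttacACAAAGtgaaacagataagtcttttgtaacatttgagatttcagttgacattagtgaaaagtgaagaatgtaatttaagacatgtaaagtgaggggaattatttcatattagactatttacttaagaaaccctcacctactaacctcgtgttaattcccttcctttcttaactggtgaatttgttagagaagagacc
Ucma (chr2:4975872-4976171, plus strand): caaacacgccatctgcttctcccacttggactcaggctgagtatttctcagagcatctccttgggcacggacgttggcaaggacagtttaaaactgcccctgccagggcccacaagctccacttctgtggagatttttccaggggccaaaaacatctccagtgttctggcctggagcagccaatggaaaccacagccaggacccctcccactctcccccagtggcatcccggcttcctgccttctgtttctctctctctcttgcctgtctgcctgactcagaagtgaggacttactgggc
Matn4 (chr2:164405111-164405410, minus strand): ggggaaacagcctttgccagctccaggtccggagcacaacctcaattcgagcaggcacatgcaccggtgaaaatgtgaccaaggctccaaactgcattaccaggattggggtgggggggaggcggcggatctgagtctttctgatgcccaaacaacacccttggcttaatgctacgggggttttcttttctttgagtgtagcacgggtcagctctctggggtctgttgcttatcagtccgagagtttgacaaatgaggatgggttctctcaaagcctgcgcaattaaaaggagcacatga

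RefSeq windows were matched for 6 of the 8 genes, with 8 windows in all. Either core occurred in 2 of the 8 windows, both of Epyc, against 28.6% of all 32851 windows of this length. ACAAAG alone was present in 18.7% of all windows and ACAATG in 12.6%. A match of 6 letters describes the sequence and does not show that a protein binds there, and windows without one say only that these letters were absent from these 300 bases.

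MPNST-like cells carried all 8 genes, but in different manners. At a common depth of 4000 UMIs per cell, to which each cell was thinned by random draw, 50.3% of 15269 MPNST-like cells had a Sox9 UMI. The shares were 21.4% for Matn4, 4.72% for Hapln1, 4.45% for Acan, 3.11% for Cnmd, 2.97% for Ucma, 2.50% for Epyc and 1.03% for Comp. The same shares without thinning were 83.4%, 31.7%, 12.5%, 12.5%, 6.17%, 7.39%, 4.39% and 4.50%. Sox9 was thus found in about every other tumor cell, and each matrix member in a minority of cells at this depth.

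Free RNA in the droplets sets a floor for such shares. Macrophage-like cells, which should lack cartilage transcripts, had a median depth of 6372 UMIs against 22936 UMIs in MPNST-like cells. At the common depth, 1.04% of 8749 macrophage-like cells had a Sox9 UMI and 0.674% a Matn4 UMI. For Acan, Hapln1, Cnmd, Ucma and Epyc the macrophage-like shares were 0.0457%, 0.0686%, 0.137%, 0.0800% and 0.0343%. Comp was found in 0.274% of macrophage-like cells, the member for which the gap to MPNST-like cells was narrowest.

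**Figure D1:**
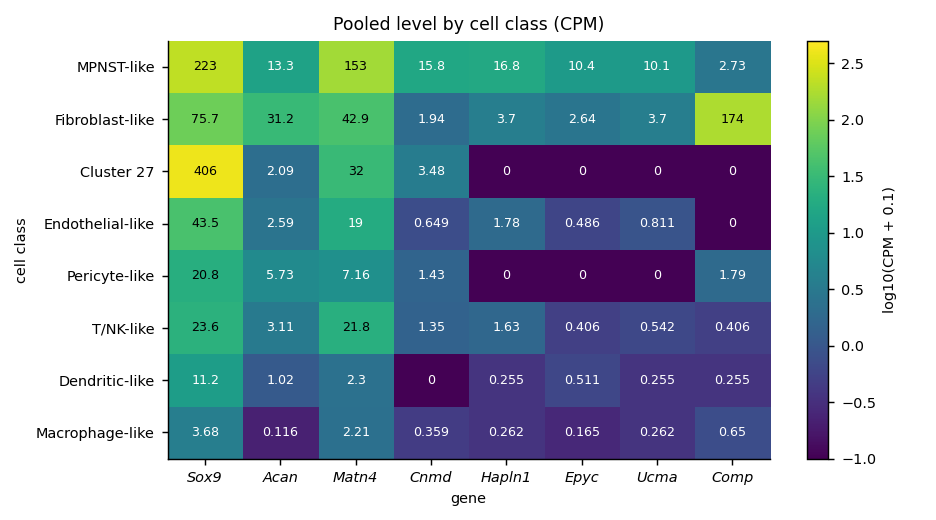
Pooled level of each gene (columns) in each cell class (rows), in CPM (the gene's UMIs divided by all UMIs of the class and scaled to the same total in every class), with color on a log10 scale of CPM plus 0.1. MPNST-like cells hold the highest pooled level of Matn4, Cnmd, Hapln1, Epyc and Ucma among the classes drawn, fibroblast-like cells that of Comp (174 CPM) and Acan (31.2 CPM), and cluster 27 that of Sox9 (406 CPM).

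The plot of pooled levels by class shows which genes were also read in host cells. Sox9 was at 223 CPM in MPNST-like cells and at 406 CPM in cluster 27, which had at least 20 cells in only 1 irradiated and 1 control tumor (369 and 394 CPM). Lower levels were found in fibroblast-like (75.7 CPM), endothelial-like (43.5 CPM), T/NK-like (23.6 CPM), pericyte-like (20.8 CPM), dendritic-like (11.2 CPM) and macrophage-like cells (3.68 CPM). Over tumors, Sox9 ranged from 171 to 293 CPM in MPNST-like cells and from 37.2 to 94.5 CPM in fibroblast-like cells, with no overlap. Endothelial-like cells ranged from 0 to 69.8 CPM and T/NK-like cells from 2.92 to 37.1 CPM, so these neighbors in the order did not part beyond their spread.

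Cnmd, Hapln1, Epyc and Ucma were at 15.8, 16.8, 10.4 and 10.1 CPM in MPNST-like cells. In fibroblast-like cells the same genes were at 1.94, 3.70, 2.64 and 3.70 CPM, and no other class with cells in the plot exceeded 3.48 CPM for any of them. Matn4 was at 153 CPM in MPNST-like cells, 42.9 CPM in fibroblast-like cells and 32.0 CPM in cluster 27. It was also read in T/NK-like (21.8 CPM) and endothelial-like cells (18.97 CPM), where it ranged from 0 to 86.8 CPM and from 0 to 54.8 CPM over tumors. The part of free RNA or mixed droplets in these host values was not tested.

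Comp had the opposite pattern, with 174 CPM in fibroblast-like cells against 2.73 CPM in MPNST-like cells. Fibroblast-like cells of irradiated 1 to 4 gave 178, 354, 153 and 0 CPM, and those of controls 1 to 3 gave 43.0, 113 and 274 CPM. The controls all lay within the range of the irradiated tumors. Of 478 fibroblast-like cells, 139 carried a Comp UMI, and in irradiated 4 none of 31 cells did, where a count of 0 allows up to 6.57 CPM. Acan reached 31.2 CPM in fibroblast-like cells, but 109 of its 177 UMIs came from irradiated 2, where 5 cells held 91.7% of them. Called doublets made up 5.23% of the fibroblast-like cluster.

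Within MPNST-like cells the matrix members gathered in the same cells. Of the 15269 thinned cells, 11146 had none of the 7 matrix members, 2822 had 1, 822 had 2 and 479 (3.14%) had 3 or more. Across all classes, 489 retained cells had 3 or more, of which 479 were MPNST-like, 5 were unnamed, 3 were fibroblast-like, 1 was T/NK-like and 1 was pericyte-like. These counts do not allow for class size. Of 384 thinned fibroblast-like cells, 0.781% had 3 or more. For 2 or more the share was 5.73% in fibroblast-like and 8.52% in MPNST-like cells. At least 1 was found in 30.2% of fibroblast-like cells, a higher share than in MPNST-like cells. An Xist UMI was found in 2.25% of the 489, against 92.9% of macrophage-like cells. Scrublet called 1.23% of the 489 cells as doublets, and none of the 479.

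**Figure D2:**
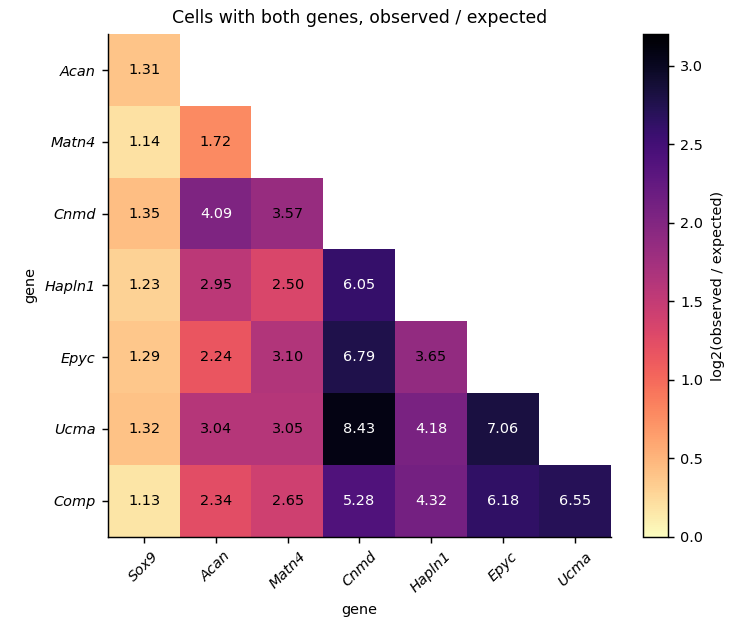
Number of MPNST-like cells carrying both genes of a pair, divided by the number expected if the genes were independent within each tumor, at 4000 UMIs per cell. Color is the log2 of the ratio. Ratios run from 1.13 (Sox9 with Comp) to 8.43 (Cnmd with Ucma).

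The heat map of joint detection gives the observed number of cells with both genes over the number expected from independence within each tumor. Cnmd and Ucma were found together in 138 cells against 16.4 expected, a ratio of 8.43. Epyc with Ucma gave 7.06 (95 cells against 13.5), Cnmd with Epyc 6.79 (94 against 13.8) and Cnmd with Hapln1 6.05 (163 against 26.96). The lowest ratio between matrix members was 1.72, for Acan with Matn4 (292 cells against 169), and it ran from 0.932 to 7.28 over tumors. The 7 pairs of Sox9 had ratios of 1.13 to 1.35, but a gene found in 50.3% of cells bounds its ratios near 2 whatever its partner. The ratios of Sox9 therefore cannot be set against those of rarer genes. Matn4, found in 21.4% of cells, bounds its ratios too, though less tightly, so its pairs cannot be ranked against pairs of rarer genes. These values describe cells that share libraries, thinned to 1 common number of UMIs.

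**Figure D3:**
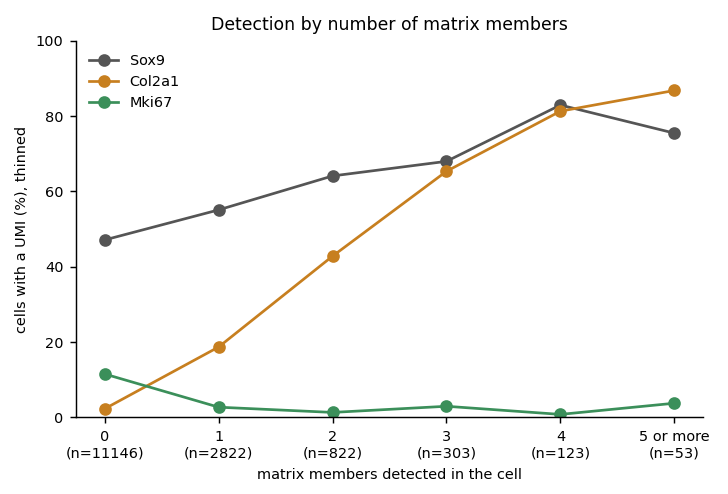
Percent of MPNST-like cells with a UMI of Sox9, Col2a1 or Mki67 (y axis) against the number of matrix members detected in the cell (x axis, number of cells in brackets), at 4000 UMIs per cell. Sox9 runs from 47.1% to 82.9%, Col2a1 from 2.31% to 86.8%, and Mki67 is highest, at 11.5%, where no matrix member was detected.

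Sox9 was nevertheless more frequent in cells with more matrix members. With the cells of all tumors pooled, it was detected in 47.1% of cells with none, 55.1% with 1, 64.1% with 2, 68.0% with 3, 82.9% with 4 and 75.5% with 5 or more. Its mean was 0.862 UMIs per cell at none and 2.42 at 5 or more. Over tumors the share ran from 41.3% to 53.6% with none and from 45.5% to 81.0% with 3. With 4 it ran from 33.3% to 89.4%, and with 5 or more from 61.1% to 100%. Only 123 cells had 4 and 53 had 5 or more. Col2a1, the chain of the type II collagen that fills cartilage fibrils, is no member of the set and was picked here after its values were seen. It went from 2.31% of cells with no matrix member to 71.8% of cells with 3 or more, against 0.343% of macrophage-like cells. Mki67, a gene of dividing cells, was detected in 11.5% of cells with none and 2.51% of cells with 3 or more. Original depth was similar at both ends, with medians of 26156 and 22386 UMIs.

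Most of these cells sat in 2 of the 12 MPNST-like clusters. Cluster 6 held 239 of the 479 (13.0% of its 1836 thinned cells) and cluster 5 held 181 (10.1% of 1792). Cluster 5 was led by Col2a1, Sema3e, Fzd9, Acan and Col9a2. It had the higher Sox9 (474 CPM against 236 CPM in cluster 6) and the higher Acan (64.7 against 15.8 CPM). Cluster 6 was led by Rerg, Alpl and Npnt, with Matn4 and Slpi also among its leading genes, and had the higher Matn4 (889 against 389 CPM) and Epyc (70.3 against 19.3 CPM). Cnmd was at 84.0 CPM in cluster 5 and 72.6 CPM in cluster 6, and Ucma at 35.5 and 48.9 CPM. Cluster 12 had 21 such cells among only 298 deep enough to be thinned, its median depth being 1655 UMIs.

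The pair of clusters was chosen for holding the most cells with 3 or more matrix members. High shares of the matrix members' UMIs there follow in part from that choice and are given as description. The pair held 22.8% of MPNST-like cells, with 90.6% of their Cnmd UMIs, 84.7% of Epyc and 80.4% of Matn4. The figures were 78.4% for Ucma, 76.9% for Hapln1, 66.4% for Comp and 52.1% for Acan. For Sox9 the figure was 28.3%. With all other MPNST-like clusters summed, Cnmd did not exceed 3.65 CPM in any tumor and Epyc did not exceed 3.88 CPM. Sox9 was still at 168 to 240 CPM there. Among these clusters, the shallow cluster 12 had pooled levels of 42.2 CPM for Cnmd, 35.6 CPM for Epyc and 49.1 CPM for Ucma. The matrix members were thus not confined to the pair. The pair held 18.5% of all UMIs of MPNST-like cells.

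Other genes of cartilage were read in cells with 3 or more matrix members and in cells with none, in the 6 tumors with at least 10 of the former. The list of 114 further cartilage genes was written with earlier results of these data known. Among all 10614 genes with a mean of at least 5 CPM in MPNST-like cells, 16.4% were higher in the cells with 3 or more in each of the 6 tumors. Of the proteoglycan and link genes at that level 9 of 11 were, as were 6 of 9 collagen genes and 7 of 10 transcription factor genes. Of all 10614 genes, 27.8% were higher in none of the 6 tumors. These counts describe cells chosen for cartilage genes and are not a test of the list.

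Among the collagens, Col2a1 was at 1630 ± 819 CPM in cells with 3 or more matrix members and 9.33 ± 5.35 CPM in cells with none (mean ± SD, n = 6 tumors). Col11a1, a chain of the fibril core, was at 4680 ± 882 against 1003 ± 199 CPM. Col6a1 and Col6a3, chains of the microfibrils made by many connective tissues, were at 500 ± 60.6 against 453 ± 38.2 CPM and 455 ± 82.0 against 530 ± 40.6 CPM. Compared within tumors, Col2a1 and Col11a1 were higher in all 6, Col6a1 in 5 of 6 and Col6a3 in 1 of 6.

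Among the small proteoglycans, Lum (lumican) was at 2010 ± 581 against 372 ± 70.3 CPM, Bgn (biglycan) at 2361 ± 281 against 1631 ± 246 CPM and Dcn (decorin) at 834 ± 187 against 494 ± 87.7 CPM. Snorc, a membrane proteoglycan of chondrocytes, was at 237 ± 80.5 against 0.591 ± 0.411 CPM. Cd44, a receptor for hyaluronan, went the other way, at 78.0 ± 14.9 against 152 ± 12.0 CPM, lower in all 6 tumors.

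Among the transcription factor genes, Sox5 was at 647 ± 143 against 279 ± 47.8 CPM and Sox6 at 54.1 ± 47.5 against 1.85 ± 0.645 CPM. Wwp2, which hosts a microRNA active in cartilage in its introns, was at 956 ± 328 against 179 ± 39.0 CPM. The 3 most abundant of the group were Trps1 (1974 ± 282 against 1401 ± 246 CPM), Zbtb20 (2237 ± 302 against 995 ± 170 CPM) and Runx2 (627 ± 144 against 601 ± 116 CPM). Runx2, needed for cartilage to turn into bone, differed little in mean and was higher in 5 of 6 tumors. Runx1 was lower in all 6 tumors (245 ± 71.4 against 391 ± 20.8 CPM).

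Genes of the remaining groups were mixed. For chain synthesis and sulfation 5 of 13 genes were higher in all 6 tumors, including Xylt1, which starts the sugar chains (348 ± 96.4 against 108 ± 22.7 CPM), whereas Ext1, of heparan sulfate synthesis, was lower in all 6 (1038 ± 72.2 against 1417 ± 125 CPM). Papss1, which makes the sulfate donor, was at 141 ± 7.05 against 149 ± 15.5 CPM. For noncollagenous matrix 3 of 7 were higher, with the thrombospondin gene Thbs3 at 93.0 ± 22.4 against 37.7 ± 6.62 CPM, whereas Matn2 was at 113 ± 28.6 against 109 ± 11.02 CPM and Tnc (tenascin C) at 492 ± 112 against 615 ± 71.6 CPM.

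For matrix breakdown 4 of 6 genes were higher in all 6 tumors, among them the protease genes Mmp2 (918 ± 228 against 481 ± 122 CPM) and Mmp14 (365 ± 45.3 against 244 ± 48.7 CPM) and the inhibitor gene Timp3 (766 ± 359 against 404 ± 102 CPM). For tendon and fibrocartilage 2 of 4 were, Egr1 (380 ± 141 against 166 ± 59.7 CPM), which is also on the dissociation stress list, and Fmod (172 ± 77.1 against 36.8 ± 9.52 CPM). Scx, the tendon transcription factor, was lower in all 6 (63.0 ± 16.7 against 85.5 ± 9.13 CPM). For growth factor signals 2 of 8 were higher in all 6. Ccn1 was at 580 ± 188 against 536 ± 244 CPM, Ccn2 at 356 ± 425 against 161 ± 37.8 CPM and Tgfb2 at 124 ± 26.6 against 115 ± 30.2 CPM. Compared within tumors, Ccn1 and Tgfb2 were each higher in 3 of 6 and Ccn2 in 5 of 6. Pthlh, a signal that holds chondrocytes back from maturing, was at 1.98 ± 2.10 against 10.4 ± 2.82 CPM, and its receptor gene Pth1r was at 60.5 ± 22.2 against 7.89 ± 2.18 CPM.

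Of the genes for hypertrophy and bone, 2 of 6 were higher in all 6 tumors, Mgp (10271 ± 7114 against 3260.5 ± 879 CPM), an inhibitor of calcification, and Alpl (29.4 ± 15.5 against 3.02 ± 3.73 CPM). Mmp13 was at 24.7 ± 25.2 against 22.2 ± 12.3 CPM. Genes of this group with a mean below 5 CPM did not go 1 way. Col10a1, the collagen that defines hypertrophic cartilage, was at 0.280 ± 0.436 against 0.405 ± 0.217 CPM. It had only 5 UMIs in cells with 3 or more. Sp7 was higher in all 6 tumors, at 9.81 ± 5.21 against 0.986 ± 0.669 CPM. Dmp1 was lower in all 6 (0.743 against 5.54 CPM). Bglap was higher in 3 of 6 tumors and Ifitm5 in 1, and Panx3 had 0 UMIs in cells with 3 or more. Spp1 (osteopontin) was at 9237 ± 5388 against 4367 ± 691 CPM, higher in 5 of 6 tumors. Among 10 proliferation genes none was higher in all 6 tumors and 8 were lower in all 6. Of all genes with a mean of at least 5 CPM, 27.8% were higher in none of the 6. Among 12 genes of the dissociation stress list, 9 were higher in all 6 tumors, including Fos (1422 ± 755 against 382 ± 281 CPM), and the part of stress in the other values was not tested.

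The genes most alike in pattern were ranked by Pearson's r with the summed matrix members over MPNST-like cells of each tumor, averaged over the 7 tumors, among 12756 genes found in at least 2% of these cells in every tumor. The first 10 that were no members were Apod (mean r = 0.58), Ecrg4 (0.57), Slpi (0.57), Mest (0.49), Prelp (0.49), Gsn (0.49), Pappa (0.48), Col9a2 (0.48), Igfbp4 (0.47) and S100b (0.47). Of these 10, only Prelp, a proteoglycan of the leucine-rich family, and Col9a2, a chain of type IX collagen, are on the cartilage list. S100b is a Schwann lineage marker that chondrocytes also make. The 2% limit left out cartilage genes nearly absent from a tumor, such as Snorc and Col9a1, each at 0.0377 CPM in its lowest tumor. Matn4 weighs most in the sum, with 70850 UMIs in MPNST-like cells against 7761 for Hapln1, the next matrix member. Apod carries lipids, Slpi inhibits proteases of leukocytes, and Pappa cleaves IGF-binding proteins, of which Igfbp4 encodes 1. The points of each correlation are cells of 1 library, and the sparse counts of single cells lower every r.

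Of single members, Matn4 was most like Slpi (r = 0.60) and Apod (0.58), whereas Cnmd was most like Col9a2 (0.52 over the 6 tumors where it had a UMI) and then Hapln1 (0.46). Sox9 was most like Wwp2 (0.29) and Sox5 (0.22), and its closest member was Acan (0.16). Cnmd and Epyc had no UMI in irradiated 4, so their r is a mean over 6 tumors.

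Whether radiation changed the program was asked by comparing the 4 irradiated with the 3 control tumors. Sox9 in MPNST-like cells was at 224, 293, 188 and 171 CPM in irradiated 1 to 4 and at 220, 239 and 228 CPM in controls 1 to 3. The irradiated tumors spread on both sides of the controls. The fitted difference (irradiated minus control) was -0.12 ± 0.21 on the log2 scale (SE). In sums over all MPNST-like cells, as here, fewer cells of the program and less RNA per cell cannot be told apart.

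Of the large matrix genes, Acan was at 13.2, 27.7, 7.15 and 3.17 CPM in irradiated 1 to 4 and at 12.0, 23.6 and 9.32 CPM in controls 1 to 3. Hapln1 was at 22.8, 28.1, 5.45 and 1.51 CPM against 14.4, 28.7 and 12.7 CPM. For both genes irradiated 2 was close to or above the highest control and irradiated 3 and 4 were below every control. The differences were -0.25 ± 0.69 for Acan and -0.38 ± 0.86 for Hapln1 (log2, SE).

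Matn4 was at 207, 139, 56.3 and 5.05 CPM in irradiated 1 to 4 and at 131, 270 and 161 CPM in controls 1 to 3. Cnmd was at 17.0, 28.8, 1.24 and 0 CPM against 15.3, 26.8 and 16.9 CPM. The value of 0 in irradiated 4 allows up to 0.113 CPM, given its 26524535 UMIs in MPNST-like cells. Groups overlapped for both genes, with differences of -0.91 ± 0.95 for Matn4 and -0.76 ± 1.26 for Cnmd.

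Epyc was at 8.40, 8.81, 4.07 and 0 CPM in irradiated 1 to 4 and at 12.5, 13.7 and 15.4 CPM in controls 1 to 3. Ucma was at 5.08, 8.93, 4.73 and 0.566 CPM against 10.4, 15.1 and 18.8 CPM. For these 2 genes every irradiated tumor was below every control, as held for 1.43% of the 17738 genes tested. Both were found in the same cells, so they are not independent.

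Comp was low throughout, at 3.04, 4.52, 2.20 and 1.02 CPM in irradiated 1 to 4 and at 2.51, 4.16 and 1.78 CPM in controls 1 to 3. Its difference was -0.09 ± 0.48 on the log2 scale, and the groups overlapped.

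**Figure D4:**
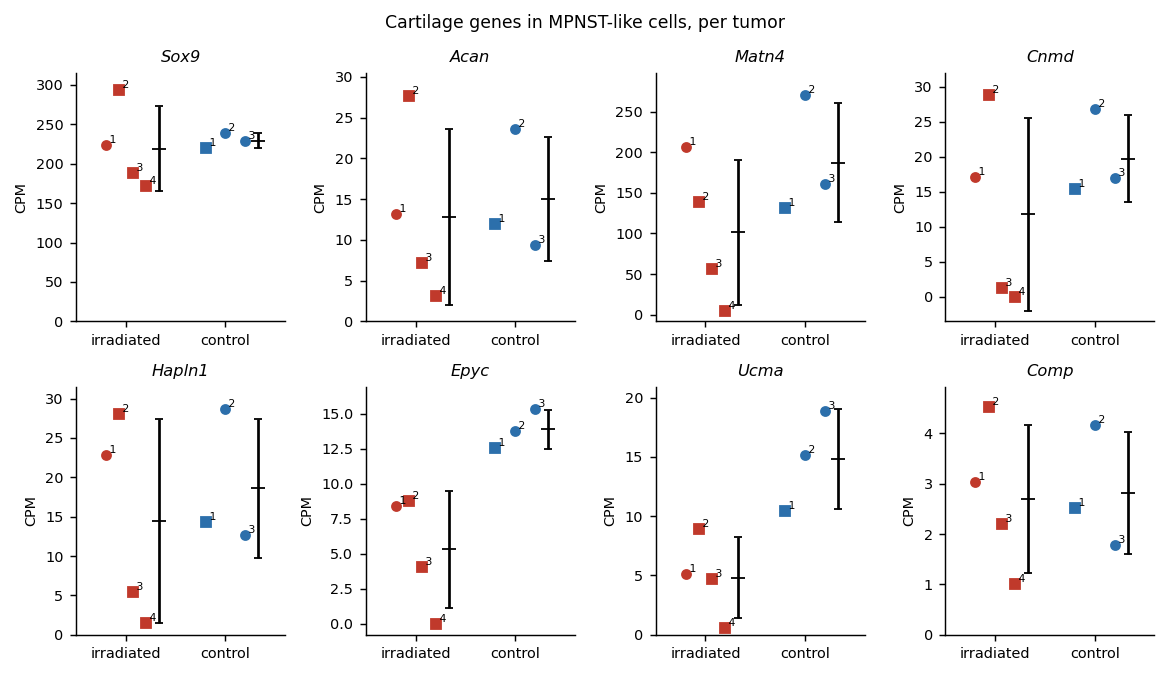
Level of each gene in MPNST-like cells (y axis, CPM) for the 4 irradiated (red) and 3 control tumors (blue), numbered as in the text, with circles for technical set 1 and squares for set 2. The black marks are the group mean ± SD. Epyc and Ucma are the only panels in which the groups do not overlap, and irradiated 4 is the lowest point of every panel.

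In edgeR's quasi-likelihood test over all genes, 0 of 17738 genes passed an adjusted p of 0.05 (0%), and so 0 of the 8 members did. Ucma had the largest fitted difference, -1.67 ± 0.69 (log2, SE), and Epyc the next, -1.40 ± 0.95, each with an adjusted p of 0.999 in edgeR. Ucma was the only member below 0.05 before adjustment, a level at which 1.21% of all genes were lower. Before adjustment 292 genes were below 0.05, and DESeq2's Wald test also called 0 genes, with 331 below 0.05 before adjustment. The fitted difference was negative for all 8 members, which share cells and so are not independent. Irradiated 4 had the lowest value of each, and without it the fitted difference was negative for 5 of the 8.

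**Figure D5:**
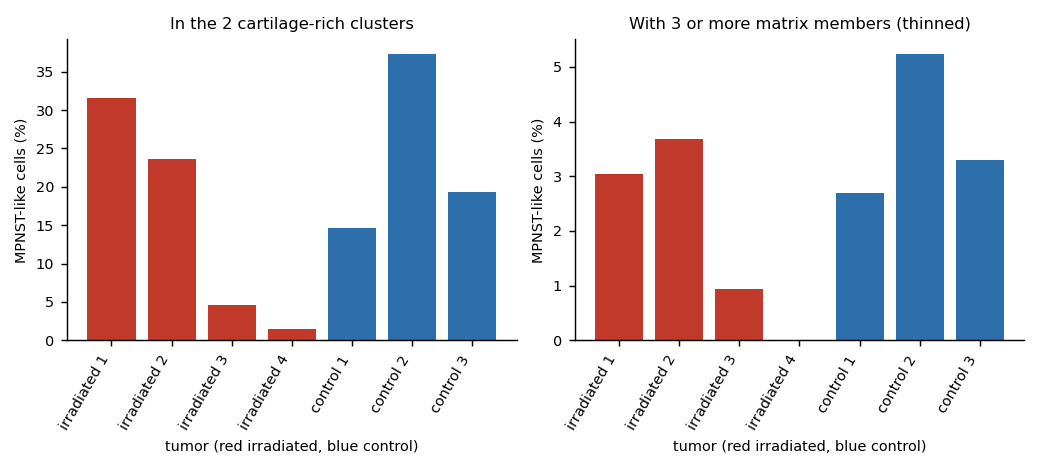
Percent of MPNST-like cells per tumor in clusters 5 and 6 (left) and with 3 or more matrix members at 4000 UMIs per cell (right), red for irradiated and blue for control tumors. Irradiated 3 and 4 are the lowest in both panels, and irradiated 1 and 2 lie within the range of the controls.

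The number of cells carrying the program differed widely between tumors. Cells with 3 or more matrix members made up 3.04% (95% Wilson interval 2.49 to 3.70) of MPNST-like cells in irradiated 1 and 3.69% (2.63 to 5.16) in irradiated 2. They made up 0.940% (0.561 to 1.57) in irradiated 3, and 0 of 815 cells in irradiated 4 (0 to 0.469), where the limit that a count of 0 allows, 3 counts, is 0.368%. In controls 1 to 3 they made up 2.69% (2.17 to 3.34), 5.24% (4.51 to 6.08) and 3.30% (2.71 to 4.01). The intervals cover counting error only. The irradiated mean was 1.92% and the control mean 3.74%, a difference of -1.83 percentage points against a pooled SD between tumors of 1.59, and the groups overlapped.

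Clusters 5 and 6 together held 31.5%, 23.6%, 4.54% and 1.53% of MPNST-like cells in irradiated 1 to 4 and 14.6%, 37.3% and 19.3% in controls 1 to 3. The group values were 15.3% ± 14.6 and 23.8% ± 12.0 (SD, n = 4 and 3), so the groups overlapped. In the 6 tumors with at least 20 cells in the pair, Epyc within it ranged from 22.7 to 80.0 CPM and Ucma from 13.8 to 83.2 CPM. Epyc in the pair was at 22.7, 36.2 and 75.8 CPM in irradiated 1 to 3 and at 80.0, 38.3 and 72.5 CPM in controls 1 to 3. Ucma was at 13.8, 33.3 and 76.2 CPM against 61.4, 39.7 and 83.2 CPM. Irradiated 1 thus had many cells in the pair and the lowest levels of both genes there, and irradiated 3 had few cells there and levels within the range of the controls. Irradiated 4 had only 13 cells in the pair and no UMI of either gene in them. Dissociation stress transcripts, summed over the retained cells of each library, were at 4676, 8202, 3748 and 6019 CPM in irradiated 1 to 4 and 3707, 5428 and 7904 CPM in controls 1 to 3, and their part in the differences between tumors was not tested.

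Col2a1 was also lowest in irradiated 3 and 4, with 123, 155, 11.3 and 2.30 CPM in irradiated 1 to 4 against 60.7, 122 and 108 CPM in controls 1 to 3 (-0.44 ± 1.16, log2, SE). Of the 114 genes on the cartilage list 101 could be tested, and 0 passed in edgeR (43 higher, 58 lower, median -0.07 against 0.0034 for all genes, log2). The list's lean turned with the replicate block (55 higher, 46 lower, median 0.027) and without irradiated 4 (57 higher, 44 lower, median 0.032). Before adjustment 3 were below 0.05, namely Cytl1 (-1.98 ± 0.81) and Foxc2 (-0.52 ± 0.21), both lower, and Mkx (0.47 ± 0.20), higher. By group the medians ran from -0.38 for noncollagenous matrix and -0.35 for hypertrophy and bone to 0.04 for sulfation and chain synthesis. All 12 genes of the dissociation stress list had negative fitted differences, with a median of -0.48, and 0 passed.

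In fibroblast-like cells 4 of the 8 members had enough counts to be tested. The differences were 0.25 ± 1.03 for Comp, -0.51 ± 0.33 for Sox9, 0.73 ± 1.298 for Acan and -0.63 ± 0.97 for Matn4 (log2, SE), and 0 of 9003 genes passed in edgeR (0%), with 264 below 0.05 before adjustment. With 31 to 145 such cells per tumor, a change of these genes in fibroblast-like cells was not detectable unless it was large.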

How the data were processed

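Counts of UMIs per gene and cell were deposited by the authors for 7 libraries, which name Cell Ranger 8.0.0 in their own headers, with mm10 as the build per the labels. Whether intronic reads were counted is not given in the sources used here. Groups and replicate numbers came from the sample titles. The members and gene lists were chosen with earlier results of these data known.

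A cell was removed if its UMIs, genes, mitochondrial or ribosomal share lay over 3 scaled median absolute deviations from its library's median. Principal components (30) of 3000 variable genes, without the members, the cartilage list, sex-linked, mitochondrial and ribosomal genes, were joined over 20 nearest neighbors and partitioned by the Leiden method (resolution 1; scanpy 1.11.5, leidenalg 0.10.2). Clusters were named from marker lists (at least 3 markers in at least 25% of cells at a fold of at least 2). Scrublet called 735 retained cells (2.14%) as doublets, which were kept. For shares, cells were thinned to 4000 UMIs and shallower cells left out, 1365 of them MPNST-like.

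Counts summed per tumor were tested with edgeR 4.0.16 (filterByExpr, TMM, robust quasi-likelihood, Benjamini-Hochberg over all genes). On simulated counts with a log2 change of 2 given to 200 genes, the fit recovered 89.5% in MPNST-like (17738 genes, 9.14% of calls false) and 86.0% in fibroblast-like cells (9003 genes, 1.71% false). The 200 genes were drawn at random above a limit on mean count. Members such as Cnmd, Epyc and Matn4 had SEs of 1.26, 0.95 and 0.95 (log2) in MPNST-like cells. The recovery rate therefore does not say how large a change of these members could have been missed. Named genes were the 8 members, the 10 genes most like them, the 3 most abundant genes of each list group, and list genes past the threshold (none). Others named were chosen after their values were seen. Some items are not reported here. Alternatives were DESeq2 1.42.0, other size factors, no filter on low counts, technical set as a term, the replicate block, each tumor left out, doublets removed and a gate on single cells.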

Additional observations from a re-analysis of the deposited data

Results flagged for a closer look

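Acan in fibroblast-like cells of the irradiated tumors stood apart in 1 of 4 libraries. Irradiated 2 was at 135 CPM, against 3.38, 3.82 and 0 CPM in irradiated 1, 3 and 4, so that its gap to the next tumor took 0.972 of the range of the group. Of 109 Acan UMIs there, a single cell held 47. The controls were at 19.98, 20.7 and 27.4 CPM. Of 13 groups of values examined in this way 1 met the limit, and chance gives about 1 in 20.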

How the results depend on the processing

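The counts of 0 called genes, 0 called members and 0 called list genes in MPNST-like cells held in each of 14 alternatives. In fibroblast-like cells DESeq2's Wald test called 2 genes instead of 0, Ddit4l (lower) and Kcnq3 (higher), neither a member. Of 112 alternative values of the members' differences, 103 kept their direction and 9 reversed. Reversed were Sox9 without irradiated 4 (0.0020), Acan without irradiated 4 (0.071) and without control 2 (0.22), Hapln1 without control 2 (0.061), and Comp with technical set as a term (0.048), with the replicate block (0.20) and without irradiated 3 (0.011), irradiated 4 (0.18) or control 2 (0.29). In fibroblast-like cells Comp reversed without irradiated 2 (-0.42) or control 1 (-0.18), Acan without irradiated 2 (-3.13), with technical set (-0.28) and with the replicate block (-0.25), and Matn4 with technical set (0.013), without control 2 (0.39) and with at least 40 cells per tumor (0.18). With 1 tumor left out, differences ran from -0.32 to 0.0020 for Sox9, -0.96 to 0.22 for Acan, -0.91 to 0.061 for Hapln1 and -0.46 to 0.29 for Comp. For Matn4 the difference was -1.55 once irradiated 1 was dropped, -0.51 once irradiated 4 was and -0.58 once control 2 was. For Cnmd it was -1.67 without irradiated 2, -0.38 and -0.35 without irradiated 3 or 4 and -0.50 without control 2. Epyc ran from -1.75 to -1.01 and Ucma from -2.14 to -1.31. In fibroblast-like cells the ranges were -0.42 to 1.12 for Comp, -3.13 to 1.15 for Acan and -1.60 to 0.39 for Matn4. The difference in the share of cells with 3 or more matrix members was -3.64 points at 8000 UMIs, -5.24 without thinning, -4.59 for 2 or more members and -0.757 for 4 or more, and ran from -2.42 to -1.08 with 1 tumor left out. It was smaller by over 1.5 times without irradiated 4 (-1.19) and without control 2 (-1.08). The replicate numbers did not pair the tumors (correlations of deviations -0.45, -0.043 and 0.10 for numbers 1, 2 and 3), and the replicate block gave 0 calls, as did the fit without it, with 144 against 292 genes below 0.05 before adjustment. The causes were not tested. Precision was limited by 7 tumors and, in fibroblast-like cells, by 31 to 145 cells each.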

Other observations

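Of 10 Schwann lineage genes, only Gap43 and S100b reached a mean of 5 CPM in MPNST-like cells. Gap43, a growth-associated gene of immature Schwann cells and axons, was at 3.67 ± 2.69 CPM in cells with 3 or more matrix members and 48.9 ± 11.1 CPM in cells with none, lower in all 6 tumors. S100b was at 122 ± 30.5 against 6.92 ± 2.96 CPM. Sox10, the defining factor of the lineage, was at 0.0298 CPM over MPNST-like cells, with 10 UMIs in cells without matrix members and 0 in cells with 3 or more.

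Among the 30 genes most like the matrix members, 2 lie near a member in the GRCm38 annotation. Slpi starts 0.3 kb past the 3' end of Matn4 on the same strand, and was at 1479 CPM in cells with 3 or more matrix members and 46.2 CPM in cells with none. Lum lies 71.4 kb from Epyc. Whether transcripts of Matn4 and Slpi were told apart in counting was not tested.

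For list genes of low level the UMIs themselves are given, chosen after their values were seen. Mia had 593 UMIs in cells with 3 or more matrix members and 20 UMIs in the far larger number of cells with none, and Scrg1 had 290 and 8 UMIs. Cilp, a cartilage intermediate layer gene, had 7 and 3067 UMIs, and its CPM was lower in all 6 tumors.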
